A study of Mus musculus with 6 samples.

Results

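The transcripts described here are 9 mouse genes for inflammatory cytokines and chemokines, read by 11 probe sets that were taken by identifier from the 45101 probe sets of the array: Il1b, Il1a, Tnf, Il6, Cxcl1, Cxcl2, Ccl3, Ccl4 and, with 3 probe sets, Il1rn. The samples were neutrophils cultured from the bone marrow of miR-223 null mice (3 arrays) and of wild-type mice (3 arrays). Progenitors of both genotypes had grown for 6 days in SILAC-IMDM, a medium for isotope labelling of proteins, with the growth factors G-CSF and SCF and for a further 42 hours in the absence of SCF, after which living neutrophils were taken by magnetic sorting. The labels give no strain, age or allele, name no inflammatory stimulus, and leave unsaid what separates 1 replicate from the next. The p-values therefore describe the spread among these arrays, which may be technical. Of the 11 probe sets, 9 were above background and 2, for Il1a and Cxcl1, were not. No cytokine or chemokine probe set passed the test in an unpaired fit, which called 0.189% of all probe sets tested. When arrays of the same replicate number were paired, Ccl3 and Ccl4 passed, both higher in null cells, in a fit that called 10.0% of all probe sets tested. Neither passed in the paired fit without an intensity trend in the variance (limma adjusted p = 0.0537 and 0.0682). That fit called 0.707% of all probe sets.

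MicroRNAs guide a silencing complex to mRNAs that pair with their seed, the short stretch near the 5′ end, and this lowers the stability or translation of those mRNAs. miR-223 is abundant in the granulocyte lineage, and its gene lies on the X chromosome. IL-1β, IL-1α, TNF and IL-6 are the classic inflammatory cytokines of myeloid cells. CXCL1 and CXCL2 attract neutrophils through the receptor CXCR2, CCL3 and CCL4 attract monocytes and lymphocytes, and the IL-1 receptor antagonist encoded by Il1rn occupies the IL-1 receptor without activating it. Neutrophils make several of these factors themselves, and many of the mRNAs are known to respond quickly to NF-κB signalling and to be short-lived.

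The deleted microRNA is shown first, since the arrays ask what changes in its absence. Of its mature forms in RefSeq, miR-223-3p is shown, and miR-223-5p, which has a different seed, is not. The sequence is RefSeq's mature miR-223-3p (GRCm38.p6, chrX:96242884-96242905, + strand), 22 bases long, with the seed, bases 2 to 8, in capitals.
mmu-miR-223-3p: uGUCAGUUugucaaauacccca
Whether the 9 mRNAs hold matches to this seed was not tested here.

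The bases before the start of 8 of the 9 genes were in RefSeq's promoter table (GRCm38.p6); that of Ccl4 was not used here. Ccl3 is shown because its probe set gave the largest difference of the 11. The run covers the 250 bases before its start (chr11:83649379-83649628, - strand), with both matches to TATAA, read on either strand, in capitals.
Ccl3: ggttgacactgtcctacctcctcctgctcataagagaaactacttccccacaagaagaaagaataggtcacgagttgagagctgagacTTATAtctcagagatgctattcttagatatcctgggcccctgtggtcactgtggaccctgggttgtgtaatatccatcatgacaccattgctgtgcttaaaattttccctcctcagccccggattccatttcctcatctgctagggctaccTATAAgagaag
The NF-κB binding motif, searched in its usual 10-letter form on both strands, matched in 3 of the 10 windows of these 8 genes (Il6, Cxcl1 and Cxcl2; Il1rn has 3 windows), where 3.90% of the 32851 RefSeq windows of the same length hold a match. These 3 stretches of 60 bases are shown because Cxcl2 was read well above background, Cxcl1 was at background, and both carry the same match; Il6 is shown as the third gene with a match. Capitals mark the motif; in Cxcl1 and Cxcl2 a match on each strand overlaps by all but 1 base.
Cxcl1, chr5:90891150-90891209, + strand: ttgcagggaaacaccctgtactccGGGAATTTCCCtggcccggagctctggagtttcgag
Cxcl2, chr5:90903778-90903837, + strand: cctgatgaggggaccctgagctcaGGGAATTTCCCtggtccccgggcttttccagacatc
Il6, chr5:30013045-30013104, + strand: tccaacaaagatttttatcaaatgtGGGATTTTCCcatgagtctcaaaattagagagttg
The Cxcl1 and Cxcl2 stretches were identical at 30 of 60 positions when set side by side at the motif. The AP-1 motif TGANTCA has the same form on both strands, so each match is 1 site. It was found in 3 of the 10 windows (Il1a, Il6 and 1 of Il1rn), against 6.75% of all windows. TATAA, on either strand, was found in 5 of the 10 (Il1b, Il1a, Tnf, Ccl3 and 1 of Il1rn), against 22.8%. A match describes these letters and does not show that a factor bound there.

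All values are the deposited log2 intensities, so 1 unit is a doubling of signal. The array medians lay between 4.71 and 4.72. Probe sets for a bacterial tryptophan gene, which mouse RNA should not bind, reached at most 2.92 to 3.10 on each array. The table names no genes for the remaining probe sets, so the neutrophil label and markers of other cell types in the culture were not checked. A probe set was called at background when it lay at or below the array's 25th percentile (3.40 to 3.43) on all 6 arrays. It was tested when its mean reached the 40th percentile of all probe sets, 4.08, which left 27022. On the first principal component, with 48.7% of the variance, null 1 and wild-type 1 lay together at 1 end and the other 4 arrays at the other, and the second, with 27.5%, parted the genotypes. Differences within the same-numbered pairs are therefore given beside the pooled ones. Probes differ in how strongly they bind, so a probe set's brightness on the array does not show which gene's mRNA is more abundant.

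Il1a and Cxcl1 read background in both genotypes. Il1a, the membrane-associated IL-1 cytokine (1421473_AT), read 3.30, 3.21 and 3.19 in null replicates 1, 2 and 3 and 3.29, 3.11 and 3.37 in wild-type replicates 1, 2 and 3. Cxcl1 (1419209_AT) read 3.27, 3.14 and 3.04 in null and 3.05, 3.17 and 3.32 in wild-type arrays. All 12 values lay under the array's 25th percentile. Cxcl1 was at or below the brightest bacterial control on 2 arrays, while Il1a was above it on every array. Both background calls thus rest on the percentile, since neither probe set was at or below that control on all 6 arrays. The values of the genotypes overlapped. In a fit without the signal filter the differences, null minus wild type, were -0.03 (SE 0.09) for Il1a and -0.02 (SE 0.10) for Cxcl1, with limma adjusted p = 0.970 and 0.976. At such signal these numbers bound neither gene's mRNA: a transcript present below the array's reach and an absent one read alike.

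**Figure D1:**
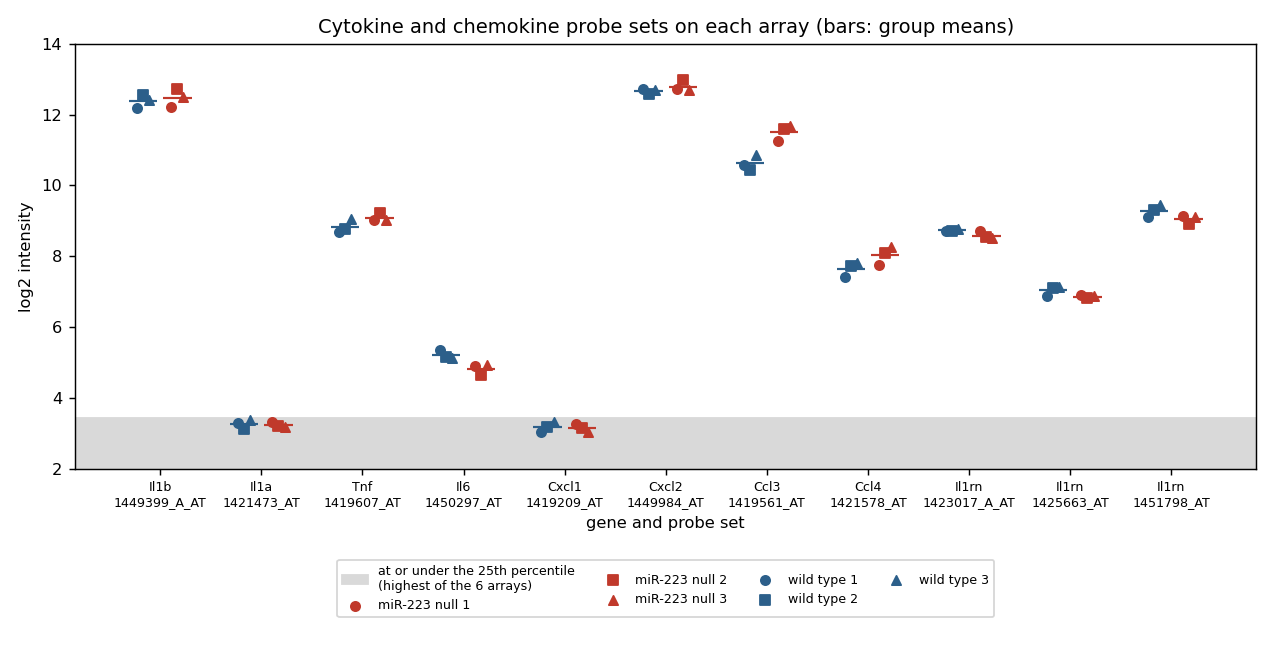
Log2 intensity (vertical axis) of each of the 11 probe sets (horizontal axis) on the 3 miR-223 null arrays (red) and the 3 wild-type arrays (blue), with bars at the group means and the grey band at or under the 25th percentile. Il1a and Cxcl1 lie inside the band on every array. Only Ccl3 and Il6 show no overlap between the genotypes, a separation seen for 16.8% of all probe sets tested.

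None of the 9 tested probe sets passed in the unpaired fit (limma, Benjamini-Hochberg adjusted p under 0.05 over all 27022), in which 0.189% of all probe sets passed. At an unadjusted limma p under 0.05, 2 of the 9 were found, Ccl3 higher and Il6 lower, against 10.7% of all probe sets. With the replicate number as a block 2 of the 9 passed, Ccl3 and Ccl4, where 10.0% of all probe sets passed and 4.96% passed as higher in null arrays. An unadjusted limma p under 0.05 was reached by 6 of the 9 in the blocked fit, against 26.2% of all. The blocked calls rest on how the variance was modelled, since without the intensity trend none of the 9 passed, against 0.707% of all probe sets. At an unadjusted limma p under 0.05 that fit held 3 of the 9 and 23.0% of all. The median difference was 0.10 log2 units over the 9 and -0.01 over all tested, and the median size of a difference was 0.23 and 0.11.

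The CC chemokines Ccl3 and Ccl4, whose products draw monocytes and T cells to inflamed tissue, were higher in null neutrophils in each of the 3 pairs. Ccl3 (1419561_AT) read 11.26, 11.59 and 11.68 in null and 10.59, 10.43 and 10.87 in wild-type replicates 1 to 3. Every null array was above every wild-type array, and the nearest values, null 1 and wild-type 3, lay 0.38 apart. Such separation in either direction was seen for 2 of the 9 probe sets and for 16.8% of all tested. The null mean was 11.51 ± 0.22 and the wild-type mean 10.63 ± 0.23 (SD, n = 3 each), a 1.84-fold difference with a 95% confidence interval of 1.45 to 2.34. The log2 difference of 0.88 (SE 0.15) had a limma adjusted p of 0.0831 without and 0.00258 with the block. It ranked 85th among the 27022 probe sets in order of rise.

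Within pairs, Ccl3 differed by 0.67, 1.16 and 0.80 log2 units for replicates 1, 2 and 3. Replicate 2 gave the widest difference, from the lowest wild-type value, and without that pair the blocked difference was 0.74 (limma adjusted p = 0.00284). Leaving out both replicate 1 arrays, which stood apart, gave 0.98 with a limma adjusted p of 0.0107 without pairing. That fit was chosen after seeing the data and passed 1072 of the 27022 probe sets, against 51 unpaired with all arrays. When 1 array was left out of the unpaired fit, the difference was 1.00 (limma adjusted p = 0.0497) without null 1 and 0.78 to 1.00 (limma adjusted p = 0.121 to 0.398) without each of the other 5. With pairing but no intensity trend the limma adjusted p was 0.0537.

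Ccl4 (1421578_AT) read 7.76, 8.08 and 8.27 in null and 7.40, 7.71 and 7.82 in wild-type replicates 1 to 3. The genotypes overlapped, because null 1 was below wild-type 3, and in both genotypes replicate 1 was lowest and replicate 3 highest. The null mean was 8.04 ± 0.25 and the wild-type mean 7.64 ± 0.22 (SD, n = 3 each), a 1.31-fold difference with a 95% confidence interval of 1.00 to 1.73 without and 1.17 to 1.47 with the block. Within same-numbered pairs the differences were close to each other, at 0.36, 0.37 and 0.45 log2 units. The blocked fit relies on this pairing. Over all tested probe sets, deviations from the group mean also correlated for null 3 with wild-type 2 (0.41) and null 2 with wild-type 3 (0.21). How replicates 2 and 3 pair is thus not settled, and other pairings were not tested. The difference of 0.39 had an SE of 0.17 and a limma adjusted p of 0.468 without the block, and an SE of 0.07 and a limma adjusted p of 0.0165 with it. The call was lost with the block when the replicate 2 pair was left out (difference 0.41, limma adjusted p = 0.104) and in a fit with no intensity trend (limma adjusted p = 0.0682).

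On the RefSeq assembly Ccl3 and Ccl4 neighbour each other on chromosome 11, and their annotated spans overlap. Whether each probe set reads its own gene alone was not tested. In RNA from many cells, a higher signal from more cells that make an mRNA and from more mRNA in each cell cannot be told apart.

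**Figure D2:**
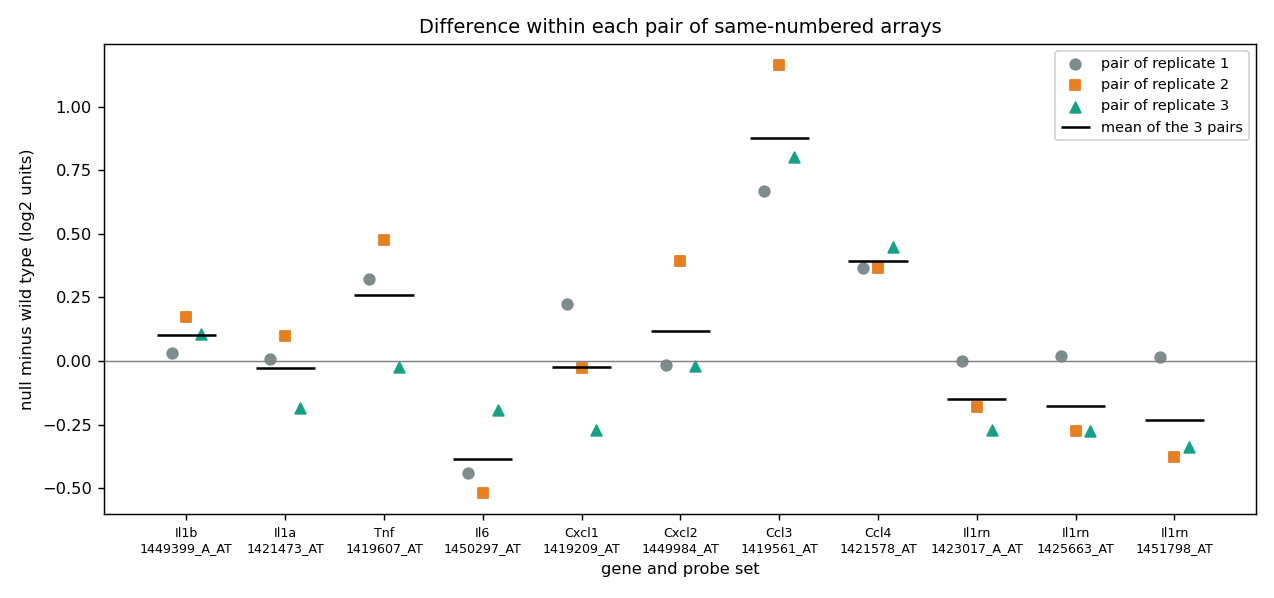
Null minus wild type in log2 units (vertical axis) for each of the 11 probe sets (horizontal axis), 1 symbol for each pair of arrays with the same replicate number and a bar at the mean of the 3 pairs. Ccl3 (0.67 to 1.16) and Ccl4 (0.36 to 0.45) were above 0 in all pairs, Il6 was below 0 in all pairs, and the 3 Il1rn probe sets were near 0 in the replicate 1 pair and below 0 in the pairs of replicates 2 and 3.

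Il6, the cytokine that drives the acute-phase response, was read as lower in null arrays by 0.38 log2 units, a difference that did not pass. Probe set 1450297_AT read 4.90, 4.64 and 4.93 in null and 5.34, 5.16 and 5.13 in wild-type replicates 1 to 3. All null values were below all wild-type values, the nearest by 0.19. Of all probe sets tested, 16.8% were separated in this way in either direction. The null mean was 4.83 ± 0.16 and the wild-type mean 5.21 ± 0.12 (SD, n = 3 each), with an SE of 0.12 and a limma adjusted p of 0.310 without and 0.0723 with the block. Within pairs the difference was -0.44, -0.52 and -0.19. Its mean stood at the 54th percentile of all probe sets, and it was not among those kept by a filter at the 60th percentile.

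Tnf, an early cytokine of the inflammatory response, differed by 0.26 log2 units, and was positive in 2 of the 3 pairs. Probe set 1419607_AT read 9.02, 9.23 and 9.03 in null and 8.70, 8.76 and 9.05 in wild-type replicates 1 to 3. Wild-type 3 stood at the level of the null arrays, and it alone made the genotypes overlap. The null mean was 9.09 ± 0.12 and the wild-type mean 8.83 ± 0.19 (SD, n = 3 each). The pair differences were 0.32, 0.48 and -0.02, and the overall difference (SE 0.13) had a limma adjusted p of 0.538 without and 0.130 with the block. With the block, the difference was 0.40 (limma adjusted p = 0.0134) without the replicate 3 pair, 0.15 (0.546) without the replicate 2 pair and 0.23 (0.279) without the replicate 1 pair. The fit without the replicate 3 pair leaves out the 1 negative pair and passed 2319 of the 27022 probe sets.

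Il1b, which encodes the secreted IL-1 cytokine that is cut from an inactive precursor, was bright in both genotypes and differed by 0.10 log2 units. Probe set 1449399_A_AT read 12.22, 12.72 and 12.51 in null and 12.18, 12.55 and 12.41 in wild-type replicates 1 to 3, at the 98.8th percentile of all probe sets. The order of the replicates, with 1 lowest and 2 highest, was the same in both genotypes, and the spread among replicates was wider than the gap between genotypes. The null mean was 12.48 ± 0.25 and the wild-type mean 12.38 ± 0.19 (SD, n = 3 each), with pair differences of 0.03, 0.17 and 0.11. The SE was 0.14 without the block and 0.04 with it, and the difference passed in neither fit (limma adjusted p = 0.869 and 0.137). The 95% confidence interval, not adjusted for the number of probe sets, ran from -0.23 to 0.43 log2 units without the block. With the block it ran from 0.01 to 0.19, a fold of 1.01 to 1.14. In the blocked fit without the intensity trend the SE was 0.07 (limma adjusted p = 0.408).

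Cxcl2, a neutrophil attractant that neutrophils also secrete, was bright in both genotypes, at the 99.1th percentile of all probe sets. Probe set 1449984_AT read 12.73, 12.97 and 12.69 in null and 12.74, 12.58 and 12.71 in wild-type replicates 1 to 3. Of the 6 values, 5 lay between 12.58 and 12.74, and null 2 stood above them. The null mean was 12.80 ± 0.16 and the wild-type mean 12.68 ± 0.08 (SD, n = 3 each). The difference of 0.12 (SE 0.09) did not pass (limma adjusted p = 0.705, and 0.390 with the block), with pair differences of -0.02, 0.39 and -0.02. The blocked 95% confidence interval was -0.06 to 0.30 log2 units. Without the replicate 2 pair the difference was -0.02. The 3 other probe sets whose values over the 6 arrays followed those of Cxcl2 most closely were 1451751_AT, 1445654_AT and 1434253_S_AT, with Pearson's r of 0.989, 0.989 and 0.987. Among 27013 probe sets compared, 87 exceeded 0.9. The 6 arrays from 2 genotypes are few points for such a ranking, and the null 2 array weighs heavily in it.

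The 3 probe sets of Il1rn, the antagonist of IL-1α and IL-1β, all read lower on average in null arrays, and none passed. Probe set 1451798_AT read 9.14, 8.92 and 9.10 in null and 9.12, 9.30 and 9.44 in wild-type replicates 1 to 3. Probe set 1423017_A_AT read 8.72, 8.53 and 8.50 in null and 8.73, 8.71 and 8.77 in wild-type arrays. Probe set 1425663_AT read 6.90, 6.82 and 6.87 in null and 6.88, 7.09 and 7.14 in wild-type arrays. In all 3 probe sets the replicate 1 arrays of both genotypes agreed to within 0.02 log2 units, and the gap lay in replicates 2 and 3.

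The Il1rn differences were -0.23 (SE 0.12), -0.15 (SE 0.10) and -0.18 (SE 0.11) for 1451798_AT, 1423017_A_AT and 1425663_AT, with limma adjusted p = 0.554, 0.678 and 0.642. With the block the adjusted p was 0.126, 0.230 and 0.290. Averaged over its 3 probe sets, Il1rn stood at 8.17 ± 0.08 in null against 8.35 ± 0.10 in wild-type arrays (SD, n = 3 each), a difference of -0.19 (SE 0.11, limma adjusted p = 0.604, and 0.195 with the block). Its pair differences were 0.01, -0.28 and -0.29. The blocked difference of 1451798_AT was -0.36 (limma adjusted p = 0.0277) without the replicate 1 pair, -0.16 (0.502) without the replicate 2 pair and -0.18 (0.292) without the replicate 3 pair. The fit without the replicate 1 pair passed 2045 of the 27022 probe sets. The other two probe sets did not pass without the replicate 1 pair (limma adjusted p = 0.145 and 0.165). The probe sets share 1 gene and are not separate observations of it.

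**Figure D3:**
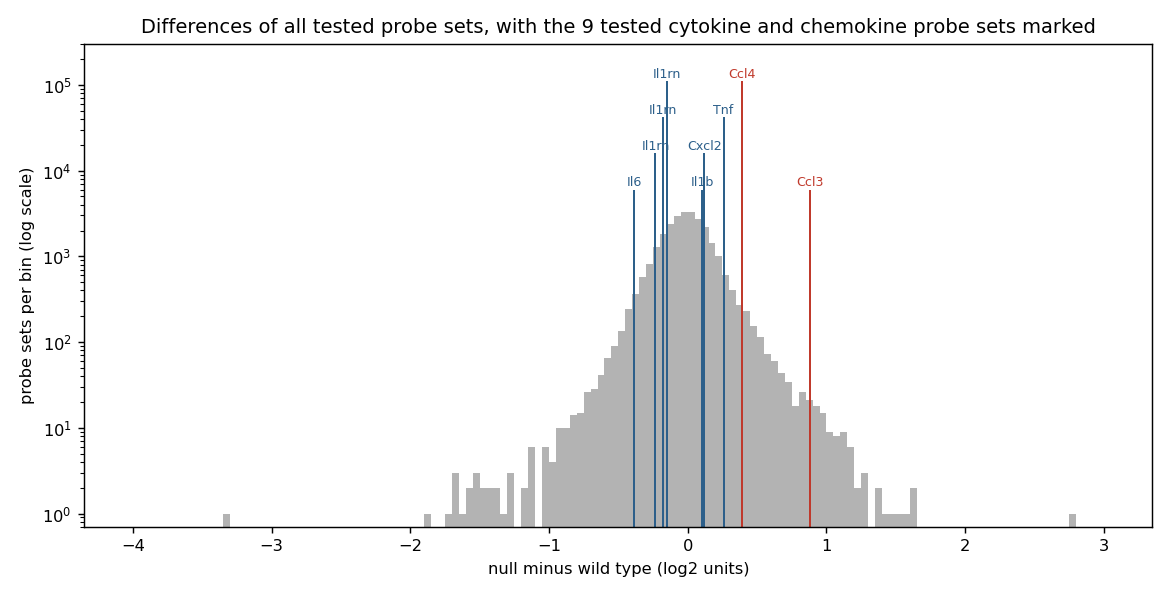
Number of probe sets (vertical axis, log scale) by null minus wild-type difference in log2 units (horizontal axis, bins of 0.05) for all 27022 tested probe sets, with lines at the 9 tested cytokine and chemokine probe sets, red where the blocked fit passed. Ccl3 at 0.88 lies in the upper tail, Ccl4 at 0.39 and Il6 at -0.38 at its shoulders, and the remaining 6 between -0.23 and 0.26.

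The direction of the difference was not the same across these genes. Of the 9 tested probe sets 5 moved one way in 3 of 3 pairs, namely Il1b, Ccl3 and Ccl4 upward and Il6 and 1423017_A_AT of Il1rn downward, the last by 0.001 in replicate 1; among all tested probe sets 46.6% did so. The signal of Ccl3, Ccl4, Tnf, Il1b and Cxcl2 averaged higher in null arrays and that of Il6 and Il1rn lower. Of these, Ccl3 and Ccl4 alone passed in the blocked fit of all arrays, where 10.0% of all probe sets passed. In the unpaired fit none of the 9 passed, against 0.189% of all probe sets. The blocked fit without the intensity trend also called none of the 9, against 0.707% of all.

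**Figure D4:**
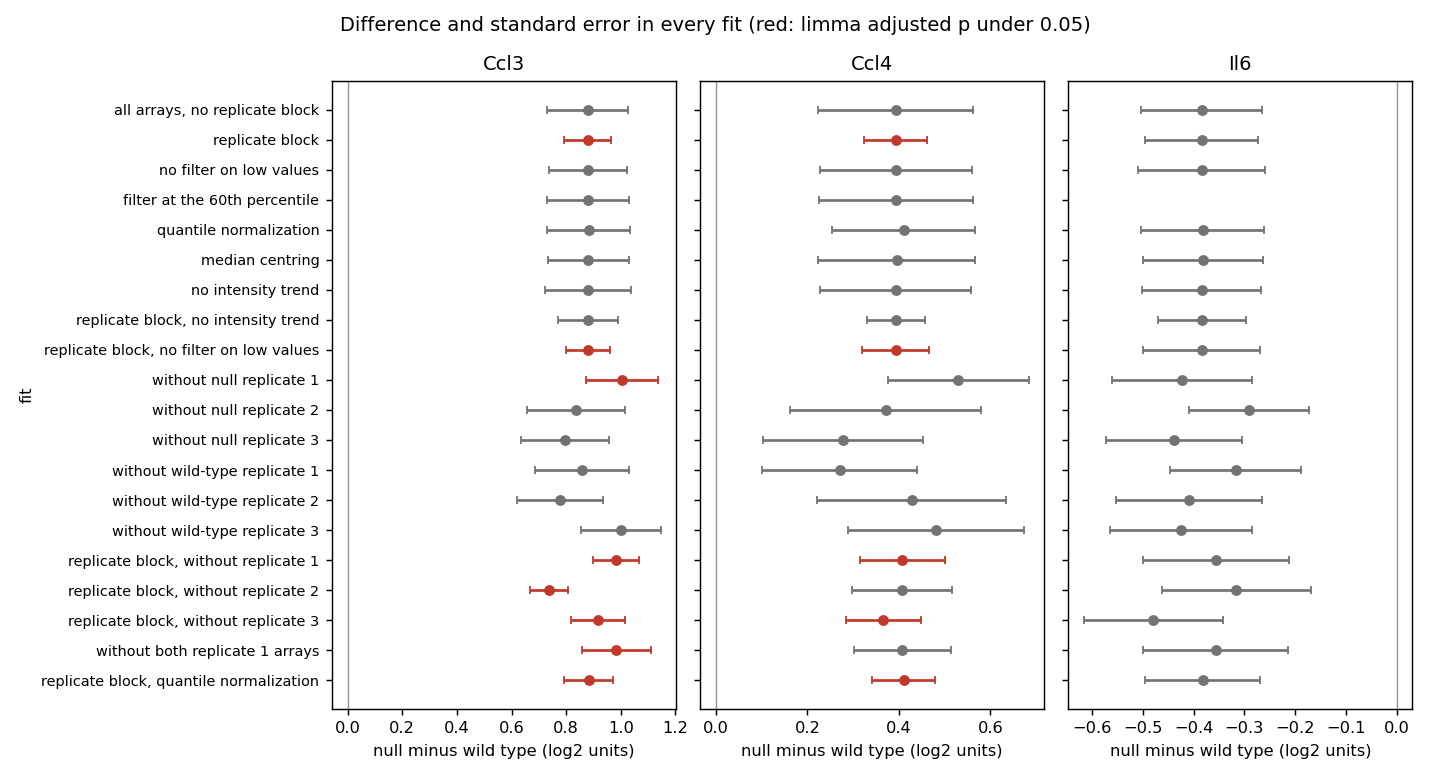
Null minus wild-type difference in log2 units (horizontal axis, point with its standard error) of Ccl3, Ccl4 and Il6 in each fit (vertical axis), red where the limma adjusted p was under 0.05; Il6 has no value under the stricter filter. Ccl3 stayed between 0.74 and 1.00, Ccl4 between 0.27 and 0.53 and Il6 between -0.48 and -0.29, and most of the red points are fits with the replicate block.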

How the data were processed

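The authors deposited log2 intensity values, 1 column per array. The submitters' processing notes name GCOS; background correction, normalization and probe summary are not given in the sources used here. Base 2 was inferred from the range, and no further normalization was applied. If arrays were forced to one distribution, a change in total mRNA is lost.

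The 64 control probe sets were set aside and the rest compared by limma 3.58.1 (R 4.3.3; lmFit, eBayes with an intensity trend), two-sided, without covariates, with Benjamini-Hochberg adjustment over all 27022 probe sets at or above the 40th percentile of mean signal. The code was tested on simulated data. Groups and replicate numbers came from the titles. Deviations from the group mean correlated at 0.70, 0.30 and 0.48 in the pairs of replicates 1, 2 and 3, all above 0.1. Mismatched pairs also passed 0.1 (0.41 for null 3 with wild-type 2, 0.21 for null 2 with wild-type 3), so the correlations do not single out how replicates 2 and 3 pair. By the rule set for the same-numbered pairs, arrays of 1 number were treated as pairs and blocked values are printed; the labels do not say what a number stands for.

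Gene names of the 11 probe sets came with the rule that chose them. The named genes were fixed as these, gene-list members past the threshold and the 3 probe sets most like the member of highest mean signal. Lists of pathway genes and cell type markers could not be run because no table given pairs the other probe sets with genes. The genes and lists were chosen with earlier results of these data known. Alternatives were the block, 2 other filters, quantile normalization, median centring, no intensity trend, a threshold of 0.01 and leaving out each array or pair. Sequences are RefSeq's (GRCm38.p6), matched by symbol.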

Additional observations from a re-analysis of the deposited data

How the results depend on the processing

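The fits tested 9 cytokine and chemokine probe sets, but 11 with no filter and 8 with a 60th-percentile filter. Of these, 0 passed in the unpaired fit with every array. The count was also 0 with no filter, a 60th-percentile filter, median centring, quantile normalization, no intensity trend or a threshold of 0.01. When 1 array was left out, 0 to 1 passed (Ccl3, without null 1). With the replicate block 2 passed, also with no filter and after quantile normalization; 1 passed at a threshold of 0.01; and 3, 1 and 3 passed without the pairs of replicates 1, 2 and 3. With the block but no intensity trend 0 passed. Without both replicate 1 arrays and without the block 1 passed, Ccl3. Over all probe sets, 51 passed unpaired, 2 at a threshold of 0.01 and 0 to 58 when 1 array was left out: 0 without null 2 (2064 with unadjusted p under 0.05) or wild-type 2 (1753), 1 without wild-type 3 and 3 without null 3. The replicate block gave 2703, 2455 with no filter, 2566 after quantile normalization, 625 at a threshold of 0.01, 191 without the intensity trend and 2045, 606 and 2319 without the pairs of replicates 1, 2 and 3. Leaving out both replicate 1 arrays gave 1072. The combinations of the block with quantile normalization or the 0.01 threshold, and the fit without both replicate 1 arrays, were chosen after seeing the data. The cause of these shifts was not tested.

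Directions turned in 2 fits, both near 0: Il1b differed by -0.016 log2 units without null 2, within a range of -0.016 to 0.237 when 1 array was left out, and Cxcl2 by -0.018 with the block and without the replicate 2 pair. Every other alternative run kept the direction of each of the 11 probe sets. With all arrays, the block changed the calls of Ccl3 and Ccl4 and no other; without the replicate 1 arrays it changed those of Ccl4 and of 1451798_AT of Il1rn (limma adjusted p = 0.0842 without and 0.0277 with it). Taking the brightest bacterial control of each array as background, 0 of the 11 probe sets were at background on all arrays, against 2 with the 25th or 40th percentile. Il1a and Cxcl1 had values only in fits without the filter, where their signal was at background.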
